A study of Mus musculus with 14 samples.

Results

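A set of 9 genes of the chemokine system were followed through the cell classes of the mouse spinal cord: Cx3cr1 with its ligand Cx3cl1 (fractalkine), and the receptors Ccr1, Ccr2, Ccrl2, Cxcr3, Cxcr4, Cxcr6 and Ackr1. They were chosen by symbol, and all 9 of 9 were found among the 55335 features counted. The whole spinal cord of mice at age P115-120 was dissociated with enzymes, cleared of myelin and sequenced cell by cell (10x Genomics 3′ chemistry) in 14 libraries. The libraries formed 4 groups, which were compared. The nTg group (3 libraries) carried no transgene. The Clec7a-KO group (4 libraries, strain B6.129S6-Clec7atm1Gdb/J) lacked the myeloid lectin receptor Clec7a in all cells. The SOD1G93A group (3 libraries, strain B6SJL-Tg(SOD1*G93A)1Gur/J) carried the mutant human SOD1 transgene, a model of amyotrophic lateral sclerosis in which the transgene is expressed in all tissues. The SOD1G93A/Clec7a-KO group (4 libraries) carried the transgene and lacked Clec7a. The labels give each group its own strain name, so strain and genotype cannot be told apart. They do not say which animal each library came from, so the p-values measure the spread between libraries.

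Chemokines are small secreted proteins that guide leukocytes through receptors coupled to inhibitory G proteins. Fractalkine is unusual in being made as a membrane-bound protein on neurons and endothelium, from which proteases of the ADAM family can release it; in the nervous system its receptor, Cx3cr1, is a standard marker of microglia. Atypical receptors such as Ackr1 and Ccrl2 bind their ligands without G-protein signalling, and present or clear them. Microglia are the resident macrophages of the cord, and border-associated macrophages sit along its vessels and meninges.

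The targeted genes matched the labels in every library. Over all barcodes Clec7a had 755 to 1767 UMIs (unique molecular identifiers, each a counted RNA molecule) in nTg, 57449 to 101134 in SOD1G93A, 33 to 110 in Clec7a-KO and 74 to 240 in SOD1G93A/Clec7a-KO. By Xist and Ddx3y UMIs, sex was not balanced: Xist was the higher in nTg replicates 1 and 3, Clec7a-KO replicate 3 and SOD1G93A/Clec7a-KO replicate 4, and Ddx3y in the other libraries, among them all 3 of SOD1G93A. Sod1 had 4195 to 23013 UMIs in libraries without the transgene and 98593 to 433164 with it. Libraries held 28819852 to 141204910 UMIs, and 90018 cells were kept. Cells were clustered and 9 classes were named from marker genes; each name stands for cells that resemble that type. Microglia were 52068 of the cells, endothelial cells 11592, ependymal cells 7696, astrocytes 6065, oligodendrocyte precursors 3921, mural cells 1754, neurons 1060, T and NK cells 780 and border-associated macrophages 541. Another 4541 cells stayed unnamed. Levels across classes are given as CPM, the UMIs of a gene per 1000000 UMIs of the class in a library, averaged over libraries with at least 20 cells of that class.

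The 9 genes divided the classes between them. Cx3cr1 and Ccrl2 were highest in microglia, Ccr1 in border-associated macrophages, Ccr2, Cxcr3, Cxcr4 and Cxcr6 in T and NK cells, and Cx3cl1 and Ackr1 in neurons. Their abundance ran over a wide range, from 843211 UMIs of Cx3cr1 in 54075 cells (60.1% of all cells kept) and 436699 of Ccrl2, through 38431 of Cxcr4, 14780 of Cx3cl1 and 9441 of Ccr1, to 1763 of Cxcr6, 1692 of Ccr2, 1216 of Ackr1 and 848 of Cxcr3.

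**Figure D1:**
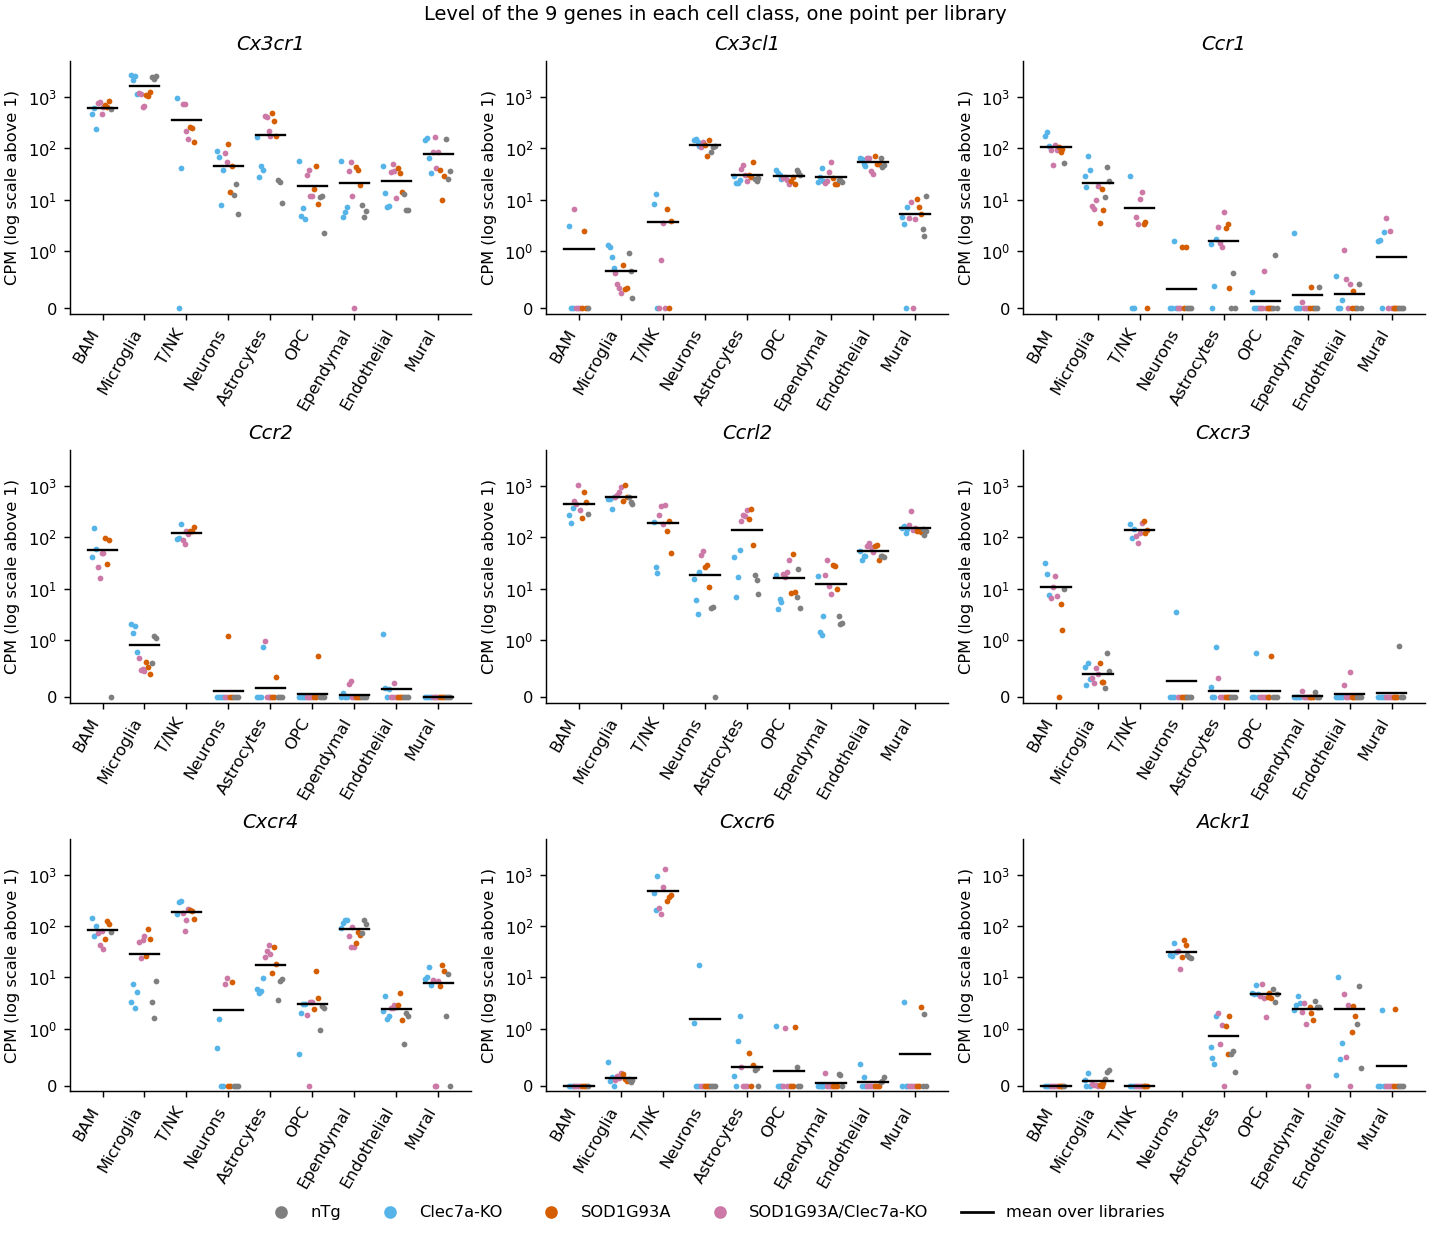
CPM of the 9 genes (vertical axis, log scale above 1 and linear below) in the 9 cell classes, with a point per library of at least 20 cells, coloured by group, and a black bar at the mean over libraries. Cx3cr1 is highest in microglia, Cx3cl1 in neurons, and Cxcr6 has a mean of 489 CPM in T and NK cells (T/NK) while its mean stays under 2 CPM in every other class; BAM, border-associated macrophages; OPC, oligodendrocyte precursors.

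Cx3cl1, the membrane-bound ligand, had its highest class means in neurons and then in endothelial cells. Its level was 118 ± 25.3 CPM in neurons (SD, n = 12 libraries) and 53.2 ± 11.7 CPM in endothelial cells (n = 14). Astrocytes (30.3 ± 10.1 CPM), oligodendrocyte precursors (28.4 ± 5.75) and ependymal cells (27.5 ± 9.83) followed, and these last 3 did not differ beyond their spread over libraries. Since endothelial cells were far more numerous in these suspensions than neurons, they held 37.0% of all Cx3cl1 UMIs and neurons 7.31%. Microglia, which carry the receptor, had 0.648 ± 0.358 CPM. The genes whose mean log2(CPM + 1) over the 9 classes was most like that of Cx3cl1 were Fat4 (Pearson r = 0.983), Pdp1, Rab4a, Syt7 and Tubgcp3; such correlations over 9 class means, which share libraries, are descriptions only.

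The shedding proteases were measured in other classes as well. Adam10, the main constitutive sheddase of fractalkine, was highest in endothelial cells at 215 ± 32.1 CPM (n = 14), and Adam17, the inducible one, was 103 ± 22.3 CPM in microglia and 97.8 ± 42.7 in border-associated macrophages, which did not differ beyond their spread.

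Cx3cr1 was highest in microglia, at 1631 ± 754 CPM (n = 14). They held 97.8% of its UMIs, a share that also reflects their number. Border-associated macrophages had 615 ± 175 CPM (n = 11). The 5 genes with the most similar profile over the 9 classes were Ctss (r = 0.998), Trem2, Ly86, Mpeg1 and Itgam, each highest in microglia.

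The lower values of Cx3cr1 in other classes were set beside those of microglial marker genes. For each library the level in a class was divided by the level in microglia, and the same was done for the 12 microglial marker genes. In astrocytes Cx3cr1 stood at a median of 10.0% of its microglial level, where the median marker stood at 10.7%, and Cx3cr1 was above every marker in 0 of 14 libraries. In T and NK cells it stood at 23.8% against 22.4% and was above every marker in 0 of 14. In border-associated macrophages it stood at 43.2% against 25.6% and above the median marker in 14 of 14 libraries, though above every marker in 1 of 14. These ratios use all 14 libraries, including those with under 20 border-associated macrophages or T and NK cells. The part of carried-over microglial RNA in these levels was not tested.

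Ccrl2 is a heptahelical receptor that binds chemerin (encoded by Rarres2) without signalling and presents it to other cells. Its level was 617 ± 181 CPM in microglia (n = 14), 449 ± 255 in border-associated macrophages (n = 11) and 190 ± 144 in T and NK cells (n = 10), then 153 ± 51.0 in mural cells, 136 ± 134 in astrocytes and 52.7 CPM in endothelial cells. The same ratios were taken for Ccrl2. In endothelial cells Ccrl2 stood at 8.95% of its microglial level while the median microglial marker stood at 1.53%, and it was above every one of the 12 markers in 14 of 14 libraries. In mural cells it stood at 24.7% against 6.18%, above the median marker in 14 of 14 libraries and above every marker in 9. Among the genes most like it over classes were Xlr (r = 0.985), Csrnp1, Tmem173 and Cgas. Rarres2 was highest in ependymal cells (1841 ± 422 CPM) and next in mural cells (827 ± 174), and Cmklr1, the signalling chemerin receptor, in border-associated macrophages (61.4 ± 19.3) and microglia (47.2 ± 13.9).

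Ccr1, a receptor for several inflammatory CC chemokines, stood at 108 ± 48.2 CPM in border-associated macrophages (n = 11) and at 21.5 ± 18.3 CPM in microglia (n = 14), which through their number held 89.8% of its UMIs. Its closest profiles over classes were those of Tmem221 (r = 0.999), Ifi207, Clec4a2, Cxcl2 and Clec4e. Ccr2, the receptor that monocytes use to leave the bone marrow, stood at 120 ± 34.3 CPM in T and NK cells (n = 10), 54.98 ± 42.2 in border-associated macrophages and 0.902 ± 0.541 in microglia. Runx3 (r = 0.995), Cd4, BE692007, Dok2 and Ifi206 were most like it.

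Much of the Ccr2 signal lay outside the named classes. A cluster of 257 cells led by S100a9 and S100a8 had high markers of both neutrophils and monocytes and was left unnamed, and it held 28.2% of all Ccr2 UMIs. Its cells came mainly from 2 Clec7a-KO libraries, replicate 1 with 70 and replicate 2 with 78, so it was not compared between groups. Split into 8 sub-clusters, it separated the chemokine receptors of blood leukocytes.

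Of these, 32 cells with 7 detected monocyte markers, led by S100a4, Ms4a6c and Fn1 beside Ccr2 itself, had 1309 CPM of Ccr2 (317 UMIs), with 186 CPM of Ccr1 and 372 of Cxcr4. By library, 8, 8, 3 and 7 of the 32 came from Clec7a-KO and 0, 2 and 1 from nTg. SOD1G93A gave 0, 0 and 1 and SOD1G93A/Clec7a-KO 1, 1, 0 and 0. Another 25 cells led by Ccl17, Mgl2 and Cd209a, genes of dendritic cells, had 602 CPM of Ccr2 and 262 of Ccr1. Ccr2 itself and Sod1 were also among their leading genes. Sod1 differs between the groups by genotype, and its part in the makeup of this set by library was not tested. None of these 25 came from Clec7a-KO replicates 1 and 2 or from nTg: 3, 7 and 5 were from the SOD1G93A libraries, 1, 1, 5 and 1 from those of SOD1G93A/Clec7a-KO and 1 each from Clec7a-KO replicates 3 and 4. Ccr2 was at 0 UMIs in the 43 cells led by Cstdc4 and Retnlg, genes of mature neutrophils, which in its place had 948 CPM of Ccr1, 1104 of Ccrl2 and 836 of Cxcr4.

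Granule genes set off 2 further neutrophil-like sets from these. The 25 cells led by Retnlg and Mmp8 had 634 CPM of Ccr1, 392 of Ccrl2 and 242 of Cxcr4, and the 53 cells led by Camp, Ltf and Ngp, genes of immature neutrophils, had 197, 36.3 and 117 CPM. The sets of 27 and 23 cells led by Igkc and Cd79a, genes of B cells, had 304 and 332 CPM of Cxcr4 with at most 1 UMI of Ccr1 and 0 of Ccr2. The last 29 cells mixed microglial and neutrophil genes and were left out of this description. These sums come from few cells and carry no test.

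Cxcr3 and Cxcr6, receptors of activated and tissue-dwelling T cells for interferon-induced CXC chemokines and for Cxcl16, had most of their UMIs in lymphocytes. Cxcr6 stood at 489 ± 355 CPM in T and NK cells (n = 10), which held 91.8% of its UMIs, and at 0 UMIs in the 541 border-associated macrophages. Cxcr3 stood at 139 ± 43.4 CPM in T and NK cells, which held 67.2% of its UMIs, against 10.6 ± 8.99 in border-associated macrophages and 0.403 ± 0.181 in microglia. Xcl1, Trbc1, Il2rb, Cd160 and Klrc1 had the profiles most like Cxcr6 (r up to 1.00), and Gm8369, Atp8b4, Cd28, Clec2i and Oas3 those most like Cxcr3. The ligand Cxcl16 had its highest means in border-associated macrophages (332 ± 86.9 CPM, n = 11) and microglia (227 ± 120, n = 14). These means pool the groups and did not differ beyond their spread, and the microglial level was higher with the transgene, as given below.

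By library, Cxcr6 in T and NK cells was 439, 203 and 938 CPM in the Clec7a-KO libraries 1, 2 and 4, then 304, 364 and 398 CPM in SOD1G93A and 219, 173, 578 and 1271 CPM in SOD1G93A/Clec7a-KO. The 3 groups overlapped. Every nTg library had under 20 T and NK cells, as did Clec7a-KO replicate 3, so this class was not tested between groups.

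Within the T and NK class, 629 cells had a UMI of a CD3 gene and 125 had none but had one of Ncr1, Klre1, Gzma or Eomes (called NK cells here). Cxcr6 was detected in 68.2% of CD3 cells (exact 95% binomial interval 64.4 to 71.8, covering counting error only) and in 52.8% of NK cells (43.7 to 61.8). These shares pool the groups, and in Clec7a-KO the order was the other way, with 57.1% of 84 CD3 cells and 72.2% of 18 NK cells. Cxcr3 was detected in 48.0% of CD3 cells (44.1 to 52.0) and 28.0% of NK cells (20.3 to 36.7). Ccr2 went the other way, with 27.0% of CD3 cells (23.6 to 30.7) and 44.0% of NK cells (35.1 to 53.2), while Cxcr4 stood at 49.1% and 48.0%. For Cxcr4 the groups went different ways. The shares of CD3 and NK cells were 58.3% and 27.8% in Clec7a-KO and 47.2% and 80% in nTg, which had 5 NK cells. They were 54.6% and 52.5% in SOD1G93A and 42.7% and 46.5% in SOD1G93A/Clec7a-KO. Median depth over all groups was alike at 4166 and 3862 UMIs per cell, but 3931 and 2338 in Clec7a-KO. Cd8a was seen in 42.0% of CD3 cells and Cd4 in 10.3%. Among CD3 cells, Cxcr6 was detected in 77.8% of those with Cxcr3 and in 59.3% of those without, but in 65.4% of those with Cxcr4 and in 70.9% of those without; depth was not matched between these cells. As background, microglia with their greater depth had a Cxcr6 UMI in at most 0.27% of cells of any library.

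**Figure D2:**
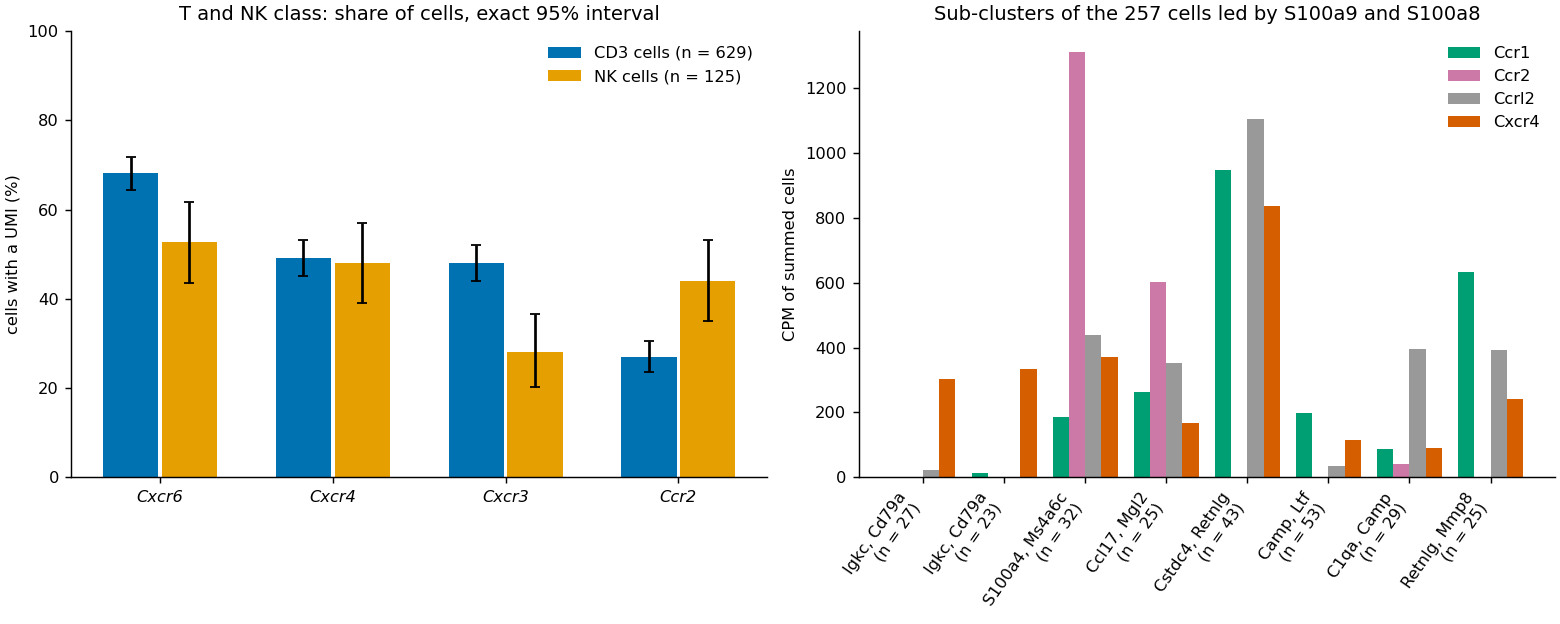
Left, the share of CD3 cells (n = 629) and NK cells (n = 125) with at least 1 UMI of each receptor, with exact 95% binomial intervals. Right, CPM of 4 receptors in the summed cells of the 8 sub-clusters of the 257 unnamed cells, named on the axis by 2 leading genes and the number of cells; Ccr2 peaks at 1309 CPM beside S100a4 and Ms4a6c and is at 0 beside Cstdc4 and Retnlg, where Ccr1 reaches 948 CPM.

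Cxcr4, the receptor of Cxcl12, was found in leukocytes and in ependymal cells. It stood at 190 ± 69.3 CPM in T and NK cells (n = 10), 86.1 ± 33.2 in ependymal cells (n = 14), 82.1 ± 33.6 in border-associated macrophages (n = 11) and 27.9 ± 28.6 in microglia (n = 14). Ependymal cells and border-associated macrophages did not differ beyond their spread. In ependymal cells, which line the central canal, 51.9% of cells had a Cxcr4 UMI and the class held 24.6% of its UMIs. Its ligand Cxcl12 was highest in endothelial cells at 2569 ± 554 CPM, and Ackr3, the scavenging receptor of the same ligand, in mural cells at 264 ± 128 CPM. No gene followed Cxcr4 closely over classes; the highest correlations were with Unc13d (r = 0.934), Lgals3, Kcnn4, Mapkapk3 and Cd82.

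Ackr1, a chemokine-binding atypical receptor known in venules and red cells, was 31.1 ± 10.98 CPM in neurons (n = 12), 4.69 ± 1.42 in oligodendrocyte precursors, 2.44 ± 1.06 in ependymal cells and 2.39 ± 2.97 in endothelial cells (n = 14 each). The last 2 did not differ beyond their spread. It was at 0 UMIs in border-associated macrophages and in T and NK cells. In GENCODE vM21 on GRCm38 the gene lies on chromosome 1 at 173331886 to 173333750, minus strand, and 493 bases of it overlap Cadm3, a neuronal adhesion gene on the same strand. How reads there were assigned is not given in the sources used here, so Ackr1 is uncertain where Cadm3 is high. Cadm3 was likewise highest in neurons (112 ± 23.2 CPM), then in oligodendrocyte precursors (44.1 ± 10.02) and ependymal cells (18.0 ± 5.02). Endothelial cells broke this order, with 0.42 CPM of Cadm3.

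The 2 sources also differed per cell. In neurons 258 UMIs were spread over 197 of 1060 cells with at most 5 in a cell. In endothelial cells 309 UMIs came from 51 of 11592 cells with up to 48 in a cell, and 24 cells with 3 or more UMIs held 276 of them. Those 51 cells had 1 Cadm3 UMI between them. The genes most like Ackr1 over the classes were Rbbp5 (r = 0.989), Lcmt1, Efnb3, Syt4 and Ttc3, each highest in neurons.

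The other genes of these cells were read by vessel segment. All 7 venous genes listed were higher in the 51 cells than in the other 11541 (median ratio 9.90), against 0 of 6 arterial genes (0.21) and 1 of 4 capillary genes (0.66). Vwf stood at 1126 against 198 CPM, the venous factor Nr2f2 at 234 against 54.8, and Lrg1 at 377 against 6.51. The adhesion molecules Vcam1 (2214 against 45.6 CPM) and Icam1 (1893 against 191) are among the same 7 genes. So is Selp, which stood at 5.89 against 0.09 CPM and was detected in only 1.96% of the 51 cells. Median depth was 9296 UMIs per cell against 6626, and the ratios are of CPM. The Ackr1 UMIs of these cells came unevenly from the libraries, with 131 in Clec7a-KO replicate 2 (10 cells), 80 in nTg replicate 2 (7 cells) and at most 22 in each of the others. No difference in endothelial Ackr1 was called with the transgene (log2 fold change -0.64, SE 1.23, and -0.44, SE 1.11, in the comparisons described next).

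**Figure D3:**
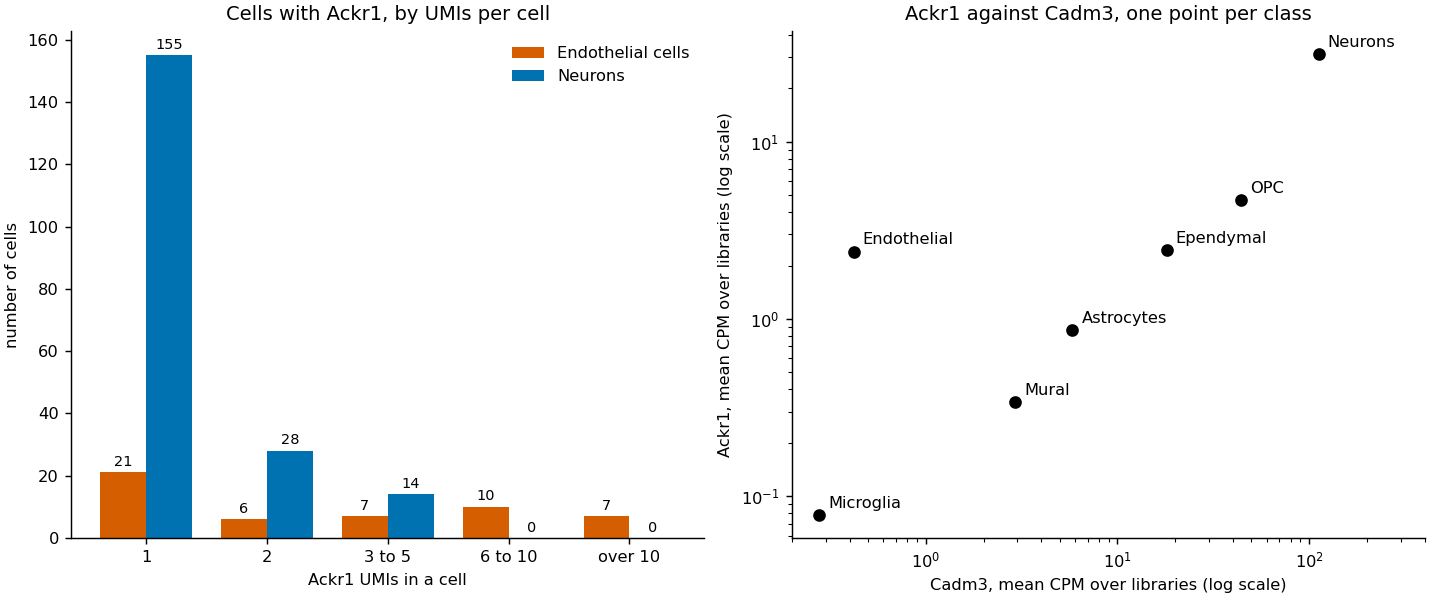
Left, number of endothelial cells and neurons by their count of Ackr1 UMIs; only endothelial cells exceed 5. Right, mean CPM over libraries of Ackr1 against Cadm3 in 7 classes, both axes on log scales; endothelial cells stand apart with 2.39 CPM of Ackr1 at 0.42 CPM of Cadm3.

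The effect of the transgene was compared next. UMI counts of all cells of a class in a library were added up, and the sums were tested with edgeR's quasi-likelihood test over all genes of the class, with Benjamini-Hochberg adjustment and a threshold of 0.05. Values below are scaled CPM, that is CPM divided by the library's TMM factor, which sets the bulk of genes level between libraries. In microglia 7 of the 9 genes passed the filter on low counts; Cxcr6 and Ackr1 did not. In SOD1G93A against nTg, 2 of the 7 were called higher and 0 lower, where 32.5% of all 16612 genes tested were called, 19.5% higher and 13.1% lower. In SOD1G93A/Clec7a-KO against Clec7a-KO, 2 were called higher and 2 lower, where 46.7% of genes were called, 25.6% higher and 21.1% lower. The share of members called was thus near that of all genes. Median log2 fold change over the 7 was -0.03 and -0.68, and over all genes 0.01 in both.

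Cxcr4 had by far the widest change. It was 2.72, 1.35 and 6.98 scaled CPM in the nTg libraries and 2.67, 6.14, 2.05 and 5.01 in Clec7a-KO. It was 27.7, 102.8 and 64.1 in SOD1G93A and 54.9, 28.5, 68.2 and 82.0 in SOD1G93A/Clec7a-KO. Every library with the transgene was above every library without it. The log2 fold change was 4.21 (SE 0.63, adjusted p = 0.000207) in SOD1G93A against nTg and 3.87 (SE 0.54, adjusted p = 5.42e-05) in SOD1G93A/Clec7a-KO against Clec7a-KO. It was called in both under each of the alternative settings tried. With every cell thinned to 2000 UMIs, 0.333% ± 0.157 of nTg microglia had a Cxcr4 UMI against 8.90% ± 4.25 in SOD1G93A; without thinning the means were 1.88% and 34.4%. Thinning left out 36 to 251 cells per library. In endothelial cells, where Cxcr4 was low, 1.42% of all cells had a UMI.

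Microglial Cx3cr1 was called lower in 1 of the 2 transgene comparisons, and both calls depended on the setting. Its values were 1932, 1897 and 2162 scaled CPM in nTg and 2193, 1803, 2089 and 1119 in Clec7a-KO. They were 1161, 1227 and 1404 in SOD1G93A and 1383, 1413, 841.6 and 846.3 in SOD1G93A/Clec7a-KO. The SOD1G93A libraries lay below all 3 nTg libraries, while in the Clec7a-deficient mice the groups overlapped through Clec7a-KO replicate 4.

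The log2 fold change of Cx3cr1 was -0.66 (SE 0.26, adjusted p = 0.0682) in SOD1G93A against nTg and -0.68 (SE 0.23, adjusted p = 0.0241) in SOD1G93A/Clec7a-KO against Clec7a-KO. The first was called under 9 of 27 alternatives, DESeq2 among them (-0.71, adjusted p = 0.0257), and the second was lost without Clec7a-KO replicate 1 (-0.58, 0.0721), Clec7a-KO replicate 3 (-0.61, 0.0649), SOD1G93A/Clec7a-KO replicate 3 (-0.63, 0.0547) or replicate 4 (-0.62, 0.0504). In the Clec7a-deficient groups the 3 libraries with the lowest values carry the 3 highest library numbers in the labels, 13, 15 and 16. The other 2 groups have no library with these numbers, so they cannot show whether such libraries are lower. SOD1G93A was 1161, 1227 and 1404 scaled CPM in libraries 1, 5 and 6, and nTg was highest (2162) in its highest number, 12. With that number as a covariate in edgeR the log2 fold changes were -0.97 (adjusted p = 0.00146) and -0.75 (adjusted p = 0.00105). All SOD1G93A numbers lie below those of nTg (8, 9 and 12). In the first comparison number and group therefore cannot be told apart, and -0.97 is no cleaner estimate than -0.66. Nearly all microglia had a Cx3cr1 UMI in every group (group means 95.9% to 96.7%). The share of cells differed only after thinning, at 95.4% in nTg and 83.1% in SOD1G93A. Thinning sets totals equal and uses no TMM factor. With library totals alone the median log2 fold change of all microglial genes was -0.44 in this comparison, so the thinned share also holds that shift.

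Ccrl2 was higher with the transgene. Its values were 493.0, 396.6 and 364.5 scaled CPM in nTg, 457.3, 453.1, 293.7 and 586.5 in Clec7a-KO, 543.7, 1206 and 684.6 in SOD1G93A and 678.6, 791.8, 957.3 and 1190 in SOD1G93A/Clec7a-KO. Neither pair of groups overlapped. The log2 fold change was 0.96 (SE 0.31, adjusted p = 0.0275) and 1.01 (SE 0.27, adjusted p = 0.00648). The first call was lost without nTg replicate 2 (0.93, 0.0799), nTg replicate 3 (0.88, 0.0894) or SOD1G93A replicate 2 (0.56, 0.173), with the ratio of Xist to Ddx3y UMIs, transcripts of the X and Y chromosomes, as covariate (0.97, 0.0846), and without the microglial clusters that had Cxcl2, Acod1, Ptgs2 or Il1b among their leading genes (0.36, 0.344). Both calls were lost when libraries were scaled by their totals only (0.49, 0.1504 and 0.50, 0.0786).

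Ccr1 and Ccr2, the inflammatory CC receptors, had lower means with the transgene. Ccr1 was 9.05, 36.1 and 18.9 scaled CPM in nTg and 3.84, 19.4 and 7.24 in SOD1G93A, which overlapped, and 24.1, 14.9, 57.6 and 36.3 in Clec7a-KO against 8.61, 7.98, 12.8 and 23.7 in SOD1G93A/Clec7a-KO. Its log2 fold changes of -1.07 (SE 0.63, adjusted p = 0.212) and -1.34 (SE 0.55, adjusted p = 0.0593) were not called, although the second was called under 10 of 27 alternatives. Ccr2 rested on 10 to 58 UMIs per library. It was not called in SOD1G93A against nTg (-0.44, adjusted p = 0.363) and was called lower in SOD1G93A/Clec7a-KO against Clec7a-KO (-1.01, SE 0.30, adjusted p = 0.0129), with 1.69, 1.15, 1.56 and 0.759 scaled CPM in Clec7a-KO against 0.776, 0.577, 0.632 and 0.573. That call was lost when the number of doublets removed was doubled (-0.44, 0.418). Few cells carried it: in Clec7a-KO replicate 1, 58 UMIs lay in 28 of 3773 cells, 26 of them in the 24 cells of the dividing cluster 17, and in replicate 2, 33 UMIs lay in 7 of 2177 cells. The share of cells with a UMI overlapped between the groups. Cxcr3 and Cx3cl1 were called in neither comparison and stayed at or under 1.10 scaled CPM in every library.

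**Figure D4:**
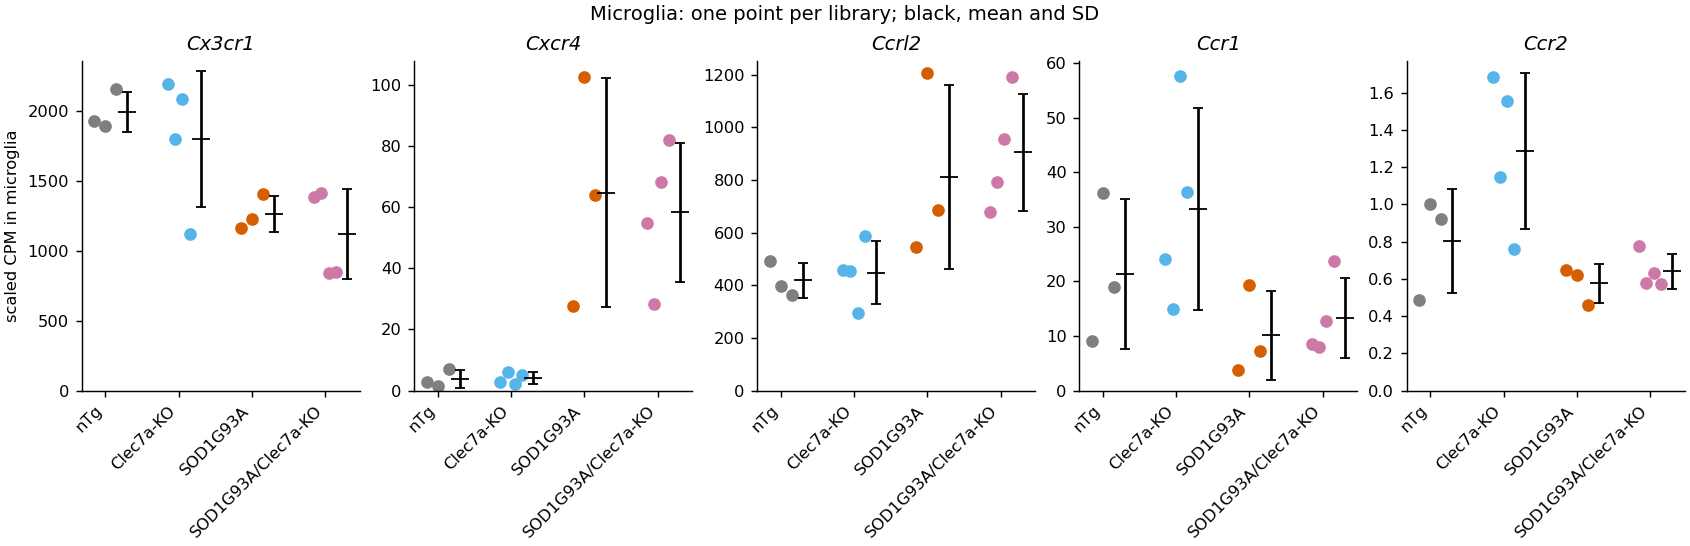
Scaled CPM in microglia (vertical axes from 0, a scale per gene) in the 4 groups, with a point per library and the mean ± SD in black beside them. Cxcr4 lies between 1.35 and 6.98 in libraries without the transgene and between 27.7 and 102.8 with it.

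Loss of Clec7a, the question named in the title of the study, gave no called difference in these genes by edgeR or DESeq2 in microglia. In SOD1G93A/Clec7a-KO against SOD1G93A, edgeR called 0 of 7 members at an adjusted p under 0.05, with 0 at an unadjusted p under 0.05, where 0.0181% of all genes were called. The log2 fold changes were -0.16 for Cxcr4 (SE 0.50), -0.17 for Cx3cr1 (SE 0.25), 0.16 for Ccrl2 (SE 0.28) and 0.36 for Ccr1 (SE 0.59). In Clec7a-KO against nTg 0 of 7 were called, where 0.0241% of genes were, and in edgeR Ccr2 alone had an unadjusted p under 0.05 (log2 fold change 0.74, SE 0.34). A test of the difference between the 2 transgene effects called 0 of 7 members and 0% of all genes, with 0 members at an unadjusted p under 0.05; it was -0.33 (SE 0.76) for Cxcr4 and -0.02 (SE 0.35) for Cx3cr1.

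Other measures moved with the transgene in the same microglia. The scaled CPM of 19 genes induced by dissociation summed to 34810 to 43870 in nTg and 37810 to 56370 in Clec7a-KO, and to 22300 to 25990 and 22460 to 30480 with the transgene. Of these 19, 8 were called lower and 0 higher in SOD1G93A against nTg, where 13.1% of all genes were called lower. Klf2 (-2.30) and Jun (-1.25) were among the 8. With library totals alone 16 of the 19 were called lower, where 5808 of all 16612 genes were. The 7 monocyte markers summed to 6.05 to 26.8 without and 155 to 267 with the transgene, and 0 of the 7 was at 0 in every library. The same 7 genes summed to 623 to 1387 in endothelial cells of the 4 groups, so the list is not particular to monocytes in these data. The 9 markers of border-associated macrophages summed to 69.2 to 99.0 and 139 to 196, and the 12 T and NK markers to at most 6.74. Markers of oligodendrocyte precursors (6 genes) summed to 3.24 to 11.6 without and 25.1 to 72.8 with the transgene, and endothelial markers (10 genes) to 55.1 to 108.7 and 87.3 to 226. Neuronal markers (10 genes) went the other way, from 16.4 to 38.0 down to 5.88 to 12.2. TMM factors were 1.04 to 1.24 without and 0.774 to 0.931 with the transgene; with library totals alone the median of all genes fell by 0.45 in SOD1G93A against nTg and by 0.52 in SOD1G93A/Clec7a-KO against Clec7a-KO, and the share of higher genes among those called went from 59.8% to 20.3% and from 54.7% to 19.3%. The part of these measures in the differences above was not tested.

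Microglia of the groups also fell into different clusters. The 4 clusters with P2ry12, a gene of homeostatic microglia, among their leading genes (clusters 3, 5, 7 and 15) held 96.8% of nTg and 95.3% of Clec7a-KO microglia, and 12.05% of SOD1G93A and 8.53% of SOD1G93A/Clec7a-KO microglia. The other 8 clusters, led by genes such as Cst7, Spp1, Gpnmb, Il1b, Cd74, Cxcl10 or Mki67, held the rest. The 9 genes described here took no part in the choice of genes for clustering. Sod1 and Clec7a, which differ between the groups by genotype, were not held out, and their part in the split of groups was not tested.

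Over all cells of a cluster, which pools groups of different makeup, Cx3cr1 was higher and Cxcr4 lower in each of the 4 P2ry12-led clusters than in each of the other 8; among the 8 the orders were not opposite throughout. Within groups this did not hold for every cluster: in SOD1G93A Cx3cr1 averaged 1126 CPM in P2ry12-led cluster 3 against 1306 and 1403 in clusters 4 and 6, and in SOD1G93A/Clec7a-KO 1057 against 1132 and 1118. The only SOD1G93A/Clec7a-KO library with at least 20 cells in P2ry12-led cluster 7 had 38.6 CPM of Cxcr4 and 1042 of Cx3cr1. Cx3cr1 was highest in cluster 15 (2704 CPM over all its cells) and lowest in cluster 16, led by Gpnmb and Spp1 (671 CPM). Cxcr4 was 2.34 to 5.31 CPM in the 4 P2ry12-led clusters and 29.5 to 77.8 CPM in the other 8, over all cells of each. Ccrl2 had no such order: it was highest in cluster 21, led by Spp1, Il1b and Cxcl2 (933 CPM), and lowest in P2ry12-led cluster 3 (357 CPM), with 460 CPM in cluster 16. Ccr1, over all cells, was 20.3 to 32.6 CPM in the P2ry12-led clusters and 4.197 to 15.5 CPM in the others, but within SOD1G93A its means were 3.09, 7.67 and 8.75 CPM in clusters 3, 5 and 15 and 10.3 to 12.4 CPM in clusters 17, 18, 19 and 21, so this order did not hold within the group. Cluster 24, led by Ccl12, Cxcl10 and interferon-induced genes, and the dividing cluster 17, led by Mki67 and Top2a, lay between the ends for Cx3cr1 (1072 and 1037 CPM).

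**Figure D5:**
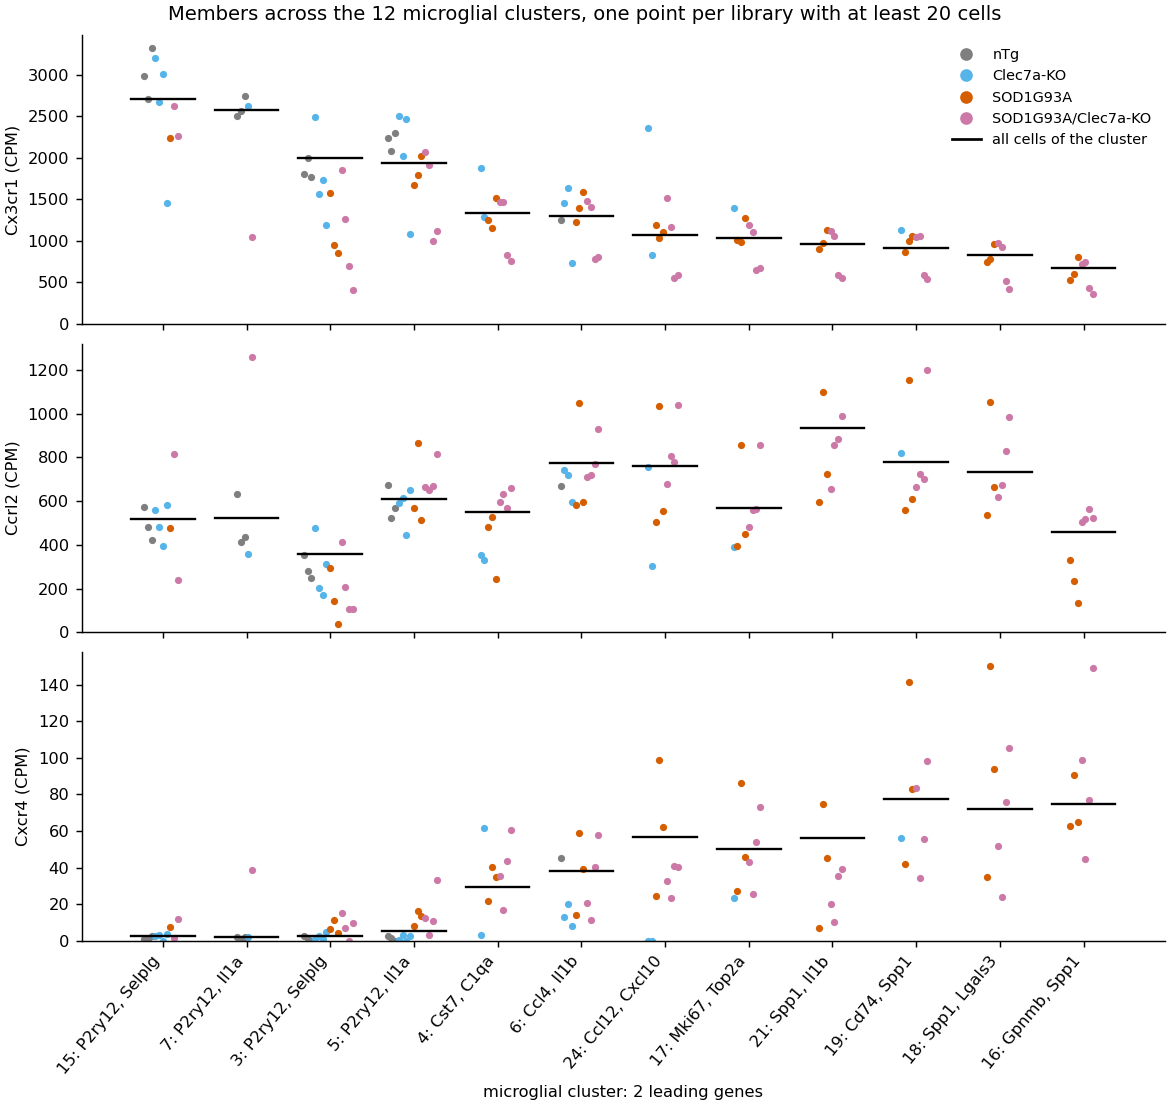
CPM of Cx3cr1, Ccrl2 and Cxcr4 in the 12 microglial clusters, ordered by Cx3cr1 over all cells of a cluster (black bars), with a point per library that has at least 20 cells there. Cx3cr1 falls from 2704 to 671 CPM from left to right while the bars of Cxcr4 stay at or under 5.31 CPM in the first 4 clusters.

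Within a cluster the groups could be set side by side where each had cells. In P2ry12-led cluster 5, which had between 73 and 1221 cells in every library, Cxcr4 was 2.94, 1.49 and 0 CPM in nTg, 0.596, 3.28, 0 and 2.60 in Clec7a-KO, 8.13, 16.4 and 13.7 in SOD1G93A and 12.5, 3.31, 11.1 and 33.6 in SOD1G93A/Clec7a-KO. All 7 libraries with the transgene lay above all 7 without it, the closest pair being 3.31 and 3.28. Other clusters overlapped: in cluster 3 Cxcr4 was 0.96 to 5.14 CPM in Clec7a-KO and 0 to 15.1 in SOD1G93A/Clec7a-KO, and in cluster 15 the latter went down to 1.40 where Clec7a-KO reached 4.11. In cluster 6 the only nTg library with at least 20 cells had 45.3 CPM against a SOD1G93A mean of 37.5, and in cluster 4 a Clec7a-KO library reached 61.6. In cluster 5 Cx3cr1 averaged 2203 ± 107 CPM in nTg and 1829 ± 172 in SOD1G93A (n = 3 each), and 2016 ± 659 and 1525 ± 546 in the Clec7a-deficient groups (n = 4 each). The CPM of clusters are not divided by TMM factors.

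Cells were also compared at equal depth. Among SOD1G93A microglia thinned to 2000 UMIs, 11.9% ± 5.18 of cells with 0 Cx3cr1 UMIs had a Cxcr4 UMI, then 10.5% ± 4.06 with 1, 8.07% ± 4.16 with 2 to 3, 7.18% ± 3.97 with 4 to 6 and 4.70% ± 2.91 with 7 or more (SD over 3 libraries). In SOD1G93A/Clec7a-KO the share ran from 9.11% ± 2.84 (4 libraries) to 3.35% ± 1.25 (2 libraries). There it was 6.82% ± 3.22 with 4 to 6 UMIs (4 libraries), and the last bin rests on 2 libraries. In Clec7a-KO the share was 2.85% ± 2.00 with 0 Cx3cr1 UMIs, 1.47% ± 0.239 with 1, 0.861% ± 0.210 with 2 to 3, 0.302% ± 0.148 with 4 to 6 and 0.304% ± 0.229 with 7 or more. The bins of a group share libraries, so each SD also holds differences between whole libraries and does not measure the spread of a step between bins. The steps within libraries were not tested. In nTg the share was at or under 1.08% in every bin.

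The start regions of the genes for Cx3cr1 and Cxcr4 are shown because these are the 2 members followed most closely across the microglial clusters. The sequences are the 250 bases before the transcription start in RefSeq on GRCm38.p6, both genes on the minus strand, written 5′ to 3′ along the gene, Cx3cr1 at chr9:120068297-120068546 and Cxcr4 at chr1:128592300-128592549. Capitals mark matches on either strand to any of 4 motifs, the TATA box TATAAA, the AP-1 site TGACTCA, the hypoxia-type core ACGTG and the purine-rich PU.1-type core GAGGAA.
Cx3cr1: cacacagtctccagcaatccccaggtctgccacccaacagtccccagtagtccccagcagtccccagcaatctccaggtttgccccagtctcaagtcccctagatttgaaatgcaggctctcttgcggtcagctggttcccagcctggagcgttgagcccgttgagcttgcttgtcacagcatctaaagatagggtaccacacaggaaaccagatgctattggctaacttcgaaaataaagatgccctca
Cxcr4: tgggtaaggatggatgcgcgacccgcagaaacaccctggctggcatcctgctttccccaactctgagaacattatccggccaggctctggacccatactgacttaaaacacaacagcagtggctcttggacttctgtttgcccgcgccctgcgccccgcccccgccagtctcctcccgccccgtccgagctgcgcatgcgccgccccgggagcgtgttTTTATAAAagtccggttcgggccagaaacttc
The Cxcr4 window held TATAAA on both strands in overlap, its first base 30 bases before the start, and 19 CpG pairs with 61.2% G and C. The Cx3cr1 window held none of the 4 motifs and 4 CpG pairs with 53.6% G and C. Over 300-base windows of all 32851 promoters in the table, 13.6% held TATAAA, 28.3% GAGGAA, 19.6% ACGTG and 5.20% TGACTCA. Of the 11 promoters of the 9 members, 2, 3, 3 and 0 held them. A match is a description of these letters only.

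The positions of the receptor genes bear on how they were counted. Ccr1 (chromosome 9, 123962124 to 123968692, minus strand) and Ccr2 (124101950 to 124113557, plus strand) lie in the CC receptor cluster, and Cxcr6 (123806475 to 123811760, plus strand) lies wholly inside Fyco1 on the opposite strand. Ccrl2 lies on the same chromosome at 111054486 to 111057519 and Cx3cr1 at 119901616 to 120069879, both on the minus strand. The annotated Cx3cr1 overlaps Gorasp1 by 12309 bases, Csrnp1 by 13496 and Xirp1 by 9844 on the same strand, so reads there could be split between these genes. Cxcr4 lies on chromosome 1 at 128588199 to 128592293 and Cxcr3 on chromosome X at 101731535 to 101734269, both on the minus strand, and Cx3cl1 on chromosome 8 at 94772009 to 94782427, plus strand.

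Other genes of the pathway were counted in microglia from lists, with the 2 transgene comparisons in the order used above. Among other chemokine receptors, Ccr6 (-1.43) and Ccr3 (-3.20, from 0.346 scaled CPM) were called lower in SOD1G93A against nTg, and lower again in SOD1G93A/Clec7a-KO against Clec7a-KO (-0.89 and -4.31).

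The ligands were next. Of 21 ligands of the 9 members 18 were tested, with 9 higher and 0 lower, then 9 higher and 2 lower, where 19.5% of all genes were called higher and 13.1% lower, then 25.6% and 21.1%. Their median log2 fold change was 1.94 and 1.08, against 0.01 over all genes in both. With library totals alone the ligands gave 8 higher and 1 lower, then 6 and 2, and medians of 1.47 and 0.56, against -0.44 and -0.51 over all genes. By that scaling 1478 of 16612 genes were called higher and 5808 lower, then 1876 and 7840. Ccl9, named below, then lost its call in the second comparison (0.39, adjusted p = 0.176 by edgeR). Cxcl16, the ligand of Cxcr6, rose from 96.0 ± 7.64 to 392 ± 51.9 scaled CPM (log2 fold change 2.03, adjusted p = 3.69e-06), Ccl6 from 134 to 568, Ccl9 from 89.4 to 280, Cxcl2 from 182 to 1473 and the platelet factor Pf4 from 0.17 to 8.82. Pf4 is also 1 of the 9 markers of border-associated macrophages, whose sum in microglia was higher with the transgene, as given above.

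Of 6 fractalkine-shedding genes, Adam17 (89.2 to 146 scaled CPM, log2 fold change 0.71) and its partner Rhbdf2 (13.95 to 33.8, 1.28) were called higher and Timp3, an inhibitor of ADAM proteases, lower (-1.15) in SOD1G93A against nTg. The second comparison gave 2 higher and 2 lower. Over all genes 19.5% were called higher and 13.1% lower in the first, and 25.6% and 21.1% in the second. Whether the 6 genes differ from these shares was not tested. Of 34 signalling genes 33 were tested, with 5 higher and 6 lower, then 9 higher and 10 lower, and a median of -0.03 and 0.02. These counts are near the 32.5% and 46.7% of all genes called. Rgs16 (3.41), Rac1 (0.57) and Ptk2b (0.66) were among those called higher, and Elmo1 (-1.26, from 235 to 98.3 scaled CPM), Rgs14 (-1.02) and Stat3 (-0.44) among those called lower. With library totals alone, Adam17 (0.26 and -0.03) and Rac1 (0.12 and -0.07) changed sign in the second comparison and were called in neither. Ptk2b (0.21) lost its call as well. The signalling list then gave 1 higher and 18 lower, and 2 and 17. With that scaling 1478 of all 16612 genes were called higher and 5808 lower, then 1876 and 7840. None of these listed genes was called by edgeR in either comparison of Clec7a loss.

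In astrocytes 4 of the 9 genes were tested, and all 4 were called higher in SOD1G93A against nTg, where 42.1% of 13124 genes were called and 23.4% were called higher, and again in SOD1G93A/Clec7a-KO against Clec7a-KO, where 40.5% were called and 22.1% called higher. Microglial RNA in the class moved with them: the 12 microglial markers summed to 208 to 469 scaled CPM in nTg and 478 to 1880 in Clec7a-KO, and to 3055 to 13370 and 5331 to 10900 with the transgene. Genes induced by tissue dissociation moved as well, with 17 of 19 called higher in SOD1G93A against nTg. They summed to 969 to 1197 scaled CPM in nTg and 3500 to 10450 in SOD1G93A, and to 1328 to 3206 and 6011 to 8443 in the Clec7a-deficient groups. The 7 monocyte markers, high in endothelial cells as given above and with F10 at 0 in every library, summed to 3.395 to 4.006 against 168 to 190, then 3.37 to 10.2 against 28.1 to 180. Markers of border-associated macrophages went from 3.48 to 4.07 in nTg to 25.8 to 68.9 in SOD1G93A, and mural markers from 69.7 to 112 to 143 to 313. The 10 astrocyte markers fell, from 25320 to 28680 down to 15740 to 18870. The part of these lists in the result was not tested.

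Cx3cl1 in astrocytes was 24.3, 21.5 and 25.4 scaled CPM in nTg, 27.7, 20.7, 20.0 and 23.4 in Clec7a-KO, 33.2, 29.0 and 52.9 in SOD1G93A and 41.8, 52.2, 33.5 and 22.5 in SOD1G93A/Clec7a-KO. The log2 fold changes were 0.72 (SE 0.24, adjusted p = 0.0214) and 0.82 (SE 0.23, adjusted p = 0.00797). Cxcr4 was 3.47 to 8.83 in nTg, 4.82 to 9.19 in Clec7a-KO, 13.4 to 42.1 in SOD1G93A and 26.4 to 46.4 in SOD1G93A/Clec7a-KO, with 1.83 (adjusted p = 0.00121) and 2.52 (adjusted p = 8.17e-05). The log2 fold changes of Cx3cr1 were 4.37 and 2.29 and those of Ccrl2 4.16 and 3.28; both genes stood near the ratio of the microglial markers in this class (10.0% and 10.6% of their microglial levels, against 10.7%).

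The astrocyte class joined 2 clusters, and the groups fell into different ones. Cluster 0 held 1684 of the nTg and 251 of the SOD1G93A cells; cluster 1, led by Aqp4, S100a6 and Gfap, held 179 and 700. Cx3cl1 was 18.6 CPM in cluster 0 and 53.6 in cluster 1, and Cxcr4 4.93 and 29.6. Within cluster 0 alone, a comparison added after the data were seen, neither was called: Cx3cl1 changed sign to -0.69 (adjusted p = 0.2999) and -0.52 (adjusted p = 0.611), and Cxcr4 was 0.10 (adjusted p = 0.959) and 0.72 (adjusted p = 0.750). Ccrl2 was 2.04 (adjusted p = 0.0539) and 2.10 (adjusted p = 0.0334), and Cx3cr1 3.06 (0.0729) and 1.77 (0.295).

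In ependymal cells 5 of the 9 were tested. Ccrl2 was called higher in SOD1G93A against nTg (1 of 5, where 1.13% of 15324 genes were called and 1.06% called higher), from 2.87, 1.97 and 2.05 to 27.8, 28.7 and 10.4 scaled CPM (log2 fold change 3.14, SE 0.71, adjusted p = 0.0339). It was lost under 9 of 26 alternatives, among them leaving out any nTg library, and Ccrl2 stood at the level of microglial markers in this class (1.17% of its microglial level against 1.48%). The 12 microglial markers summed to 270.5 to 290.8 scaled CPM in nTg and 658 to 1398 in SOD1G93A, and 249 to 752 in Clec7a-KO and 439 to 1669 in SOD1G93A/Clec7a-KO. The 19 genes induced by tissue dissociation summed to 8225 to 12180 in nTg and 2551 to 8308 in SOD1G93A, and 3655 to 14460 and 3208 to 7489 in the Clec7a-deficient groups. Their part in the Ccrl2 result, and in the Cxcr4 values that follow, was not tested. None of 5 was called in SOD1G93A/Clec7a-KO against Clec7a-KO, where 1.37% of genes were; Cxcr4 and Ccrl2 had an unadjusted p under 0.05.

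Ependymal Cxcr4, opposite to microglial Cxcr4, was not higher with the transgene. It was 70.3, 126.5 and 105.1 scaled CPM in nTg, 95.9, 111.9, 125.7 and 132.8 in Clec7a-KO, 45.04, 78.5 and 70.4 in SOD1G93A and 65.0, 40.7, 99.0 and 37.5 in SOD1G93A/Clec7a-KO. The first pair of groups overlapped, and in the second 3 of 4 libraries with the transgene lay below all of Clec7a-KO. The log2 fold changes were -0.58 (SE 0.28, adjusted p = 0.675) and -0.85 (SE 0.25, adjusted p = 0.121) and were not called. The second was called with DESeq2 (adjusted p = 0.0406), without a filter on low counts (adjusted p = 7.47e-05) and without SOD1G93A/Clec7a-KO replicate 3 (-1.18, adjusted p = 0.0140).

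The vascular and neuronal levels of these genes were not called different. In endothelial cells 0 of 5 tested members were called in either transgene comparison, where 1.17% and 0.922% of genes were, although Cxcr4, Ccrl2 and Cx3cr1 in the first and Ccrl2 in the second had an unadjusted p under 0.05. Endothelial Cx3cl1 was 62.1, 43.3 and 45.5 scaled CPM in nTg, 63.0, 65.7, 47.7 and 48.8 in Clec7a-KO, 65.9, 51.6 and 51.4 in SOD1G93A and 62.9, 64.0, 37.6 and 32.9 in SOD1G93A/Clec7a-KO; the groups overlapped (log2 fold change 0.16, SE 0.24, and -0.19, SE 0.21). In neurons 0 of 4 were called (0.476% and 0.311% of genes), with Ccrl2 and Cx3cr1 in the first and Ccrl2 in the second at an unadjusted p under 0.05. Neuronal Cx3cl1 gave 0.21 (SE 0.26) and -0.18 (SE 0.28).

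In oligodendrocyte precursors 0 of 4 were called (0.907% and 3.67% of genes). Cx3cl1 there was 36.1, 33.9 and 29.1 scaled CPM in nTg against 21.7, 27.5 and 20.6 in SOD1G93A, which did not overlap (-0.50, SE 0.17, unadjusted p = 0.0107, adjusted p = 0.222), and -0.26 (SE 0.17) in the second comparison. In mural cells 0 of 2 were called (0.106% and 0.159% of genes), with Cx3cr1 in the first at an unadjusted p under 0.05. The median log2 fold change over the 2, Cx3cr1 and Ccrl2, was -0.84 in the first comparison and 0.05 in the second. Mural Ccrl2 was 106 to 141 scaled CPM in nTg and 124 to 139 in SOD1G93A. In these 6 classes Clec7a loss gave 0 called members by edgeR and by DESeq2. With the transgene, 0.0261% of genes were called in ependymal cells, 0.00762% in astrocytes, 0.00756% in endothelial cells and in oligodendrocyte precursors and 0% in mural cells and neurons; Ccrl2 and Cx3cr1 in mural cells had an unadjusted p under 0.05. Without it, 0.0261% of genes were called in ependymal cells, 0.0151% in oligodendrocyte precursors and 0% in the other 4 classes, and Cx3cr1 in astrocytes and Ccrl2 and Cx3cr1 in neurons had an unadjusted p under 0.05.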

How the data were processed

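Per the labels' protocols, dissociated spinal cord cells were captured with 10x Genomics 3′ v3.1 chemistry. The authors deposited 1 filtered matrix of raw UMI counts per library; per the file headers the software version was 3.0.2, and per the submitters' processing notes Cell Ranger, Seurat, DESeq2 and mm10 were used, with no role given. From 108892 barcodes, 7127 were removed for under 500 genes or 1000 UMIs, 4963 for over 15% mitochondrial UMIs and 6784 as predicted doublets (0.8% per 1000 cells). At most 44 barcodes were shared in any of 91 library pairs. Cells were clustered with scanpy 1.11.5 (2000 variable genes without the members, 30 components, 15 neighbours, Leiden resolution 1.0, giving 29 clusters).

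Counts were summed per class and library (at least 20 cells; at least 2 libraries per group) and tested with edgeR 4.0.16 (TMM, filterByExpr, quasi-likelihood test, Benjamini-Hochberg over all genes), after a test on simulated data; DESeq2 1.42.0 was an alternative. The members and lists were chosen with earlier results of these data known. Besides the 9 members, the text names listed genes called in microglia in SOD1G93A against nTg, at most 5 per list and direction by smallest p, and the 5 genes most correlated with each member over the classes among genes of at least 10 CPM in 1 class; leading, marker, ligand and vessel genes are named as descriptions. Some genes that this rule selects are not reported here. Intervals cover counting error only.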

Additional observations from a re-analysis of the deposited data

Results flagged for a closer look

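Of 52 sets of 4 libraries examined, 5 held a library whose distance to its nearest neighbour took up more of the range of the set than the 95% critical value of Dixon’s test allows; chance gives about 1 in 20. Cx3cr1 in the Clec7a-KO group was highest in replicate 1 in 3 classes, with 154.7 scaled CPM in astrocytes (next 43.68), 58.46 in ependymal cells (next 7.413) and 54.96 in oligodendrocyte precursors (next 6.571). Ccrl2 in mural cells of the SOD1G93A/Clec7a-KO group was 325.9 scaled CPM in replicate 2, with the next library at 173.9. Ackr1 in endothelial cells of the Clec7a-KO group was 10.53 scaled CPM in replicate 2, with the next at 0.7794; 10 cells of that library held 131 UMIs.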

How the results depend on the processing

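Members called in microglia in SOD1G93A against nTg went from 2 to 1 with the Xist to Ddx3y covariate and without the clusters led by Cxcl2, Acod1, Ptgs2 or Il1b, and ranged from 1 to 3 on leaving out each library (1 without nTg replicate 2 or 3 or SOD1G93A replicate 2). In SOD1G93A/Clec7a-KO against Clec7a-KO they were 4, ranging from 3 to 5. In the other classes the first comparison gave 5 calls, against 14 without a low-count filter, 3 with the library number or the Xist to Ddx3y covariate, 2 at Leiden resolution 0.5, 1 in the main astrocyte cluster only and 3 to 6 on leaving out each library. The second gave 4, against 9 without the filter, 1 at a 5% mitochondrial limit, 1 in the main astrocyte cluster only and 3 to 6 on leaving out each library. The other comparisons gave 0, against 1 (SOD1G93A/Clec7a-KO against SOD1G93A), 6 (Clec7a-KO against nTg) and 2 (difference of transgene effects) without the filter, and 1 for Clec7a-KO against nTg at the 5% limit. Cx3cl1 in astrocytes reversed to -0.69 and -0.52 in the main cluster. Of the log2 fold changes recomputed, 499 kept their direction and side of the threshold, 41 lost a call, 22 gained one and 2 reversed. Of the percentages recomputed, 87 stayed the same and 75 moved, and of the mean CPM values 159 stayed and 3 moved. Same-numbered replicates correlated at -0.325 to 0.636, so the numbers were not taken as pairs; with the replicate block the microglial calls were 3 and 6, and those in other classes 7 and 4. Scaling by library totals and the main astrocyte cluster were alternatives chosen after seeing the data. The cause of these changes was not tested. Ccr2 and Cxcr3 in microglia and Ackr1 in most classes are limited by few UMIs.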
